A study of Mus musculus with 3 samples.

Results

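The 9 genes described here encode transcription factors that mark the naive, memory, effector and exhausted states of lymphocytes. They were taken by name, 9 of the 33696 genes listed for each library, and were followed in CD8, CD4, Foxp3-positive, naive-like and cycling T cells and in NK cells. Tcf7 (ENSMUSG00000000782), Lef1 (ENSMUSG00000027985) and Bach2 (ENSMUSG00000040270) are factors of naive and memory cells. Eomes (ENSMUSG00000032446) and Tbx21 (ENSMUSG00000001444) are T-box factors of cytotoxic lymphocytes. Tox (ENSMUSG00000041272) is the factor of the exhausted state, Id2 (ENSMUSG00000020644) and Id3 (ENSMUSG00000007872) inhibit E proteins, and Prdm1 (ENSMUSG00000038151) encodes the repressor Blimp-1.

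Leukocytes came from subcutaneous tumors of KP1 cells, a mouse line of small cell lung cancer (SCLC) with mutant Rb and p53, grown in wild-type B6129SF1/J mice that had each been given 500000 tumor cells. The mono-IL-10 group received 3 µg doses of mono-IL-10, a monomeric form of human IL-10, every other day, by the labels between day 7 and day 19. The IL-10/2-Trikine group received 3 µg doses of a fusion of that molecule with a domain that recruits the IL-2 receptor, on the same days. The combination group received the IL-10/2-Trikine and, on days 7, 11, 15 and 19, 200 µg of an antibody against PD-1. The title and treatment label name the antibody for the combination library alone, and the methods list the groups in the same way. Tumors were taken on day 19, enriched for leukocytes on a density gradient and sorted for live CD45+ cells. Each group was 1 library, and how many mice went into a library is not given in the sources used here. By the methods, the mice were bought at an age of 5 to 6 weeks. No difference could therefore be tested, and every interval below covers counting error only.

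TCF-1 and LEF-1, the products of Tcf7 and Lef1, bind DNA through a shared domain, work with beta-catenin or co-repressors, and are needed in T cell development and in the self-renewing progenitor cells that sustain a response to chronic antigen. Bach2 restrains effector genes, T-bet (from Tbx21) and Eomes drive cytotoxic and interferon programs in T and NK cells, and Tox is induced by persistent antigen and maintains exhausted CD8 cells. Id2 and Id3 bind E proteins and keep them off DNA, Id2 mostly in effector cells and Id3 mostly in naive and memory precursor cells, and Blimp-1 represses Tcf7, Bach2 and Id3 in terminal effector cells.

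The starts of 8 of the 9 genes were found among the RefSeq promoters of build GRCm38.p6, with 12 starts in all, and Tox was not. The 250 bases before each start were searched on both strands for 4 motifs of factors that act on or through these genes. They were TTCNNNGAA, the STAT motif bound by the factors that IL-10 and IL-2 activate, CTTTGAT of TCF/LEF, TCACACC of T-box factors, and TGANTCA, shared by AP-1 and BACH factors. Among the 32851 promoters in the table, 7.02% held the STAT motif, 3.21% that of TCF/LEF, 3.33% the T-box motif and 6.75% TGANTCA. Only 2 of the 12 starts held a match, and a match is a string of letters, not a measured site. The windows of Bach2 (chr4:32417185-32417434, + strand) and Prdm1 (chr10:44458749-44458998, - strand) are shown because they held those matches, marked in capitals. The STAT match of Bach2, TTCGTTGAA, lay 140 to 132 bases before its start, and the match of Prdm1, TGAATCA, lay 48 to 42 bases before its start. The window of Eomes (chr9:118477939-118478188, + strand), the gene with the largest differences below, is shown for comparison and held no match.
Bach2: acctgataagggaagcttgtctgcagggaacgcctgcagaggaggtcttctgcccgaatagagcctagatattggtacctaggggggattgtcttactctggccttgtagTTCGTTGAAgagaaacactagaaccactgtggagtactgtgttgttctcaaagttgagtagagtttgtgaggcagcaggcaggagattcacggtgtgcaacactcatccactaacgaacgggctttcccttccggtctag
Prdm1: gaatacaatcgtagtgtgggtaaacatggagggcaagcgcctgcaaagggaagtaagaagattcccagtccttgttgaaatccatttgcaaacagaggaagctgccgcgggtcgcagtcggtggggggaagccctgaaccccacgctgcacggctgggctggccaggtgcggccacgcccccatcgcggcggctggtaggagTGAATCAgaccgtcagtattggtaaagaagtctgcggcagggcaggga
Eomes: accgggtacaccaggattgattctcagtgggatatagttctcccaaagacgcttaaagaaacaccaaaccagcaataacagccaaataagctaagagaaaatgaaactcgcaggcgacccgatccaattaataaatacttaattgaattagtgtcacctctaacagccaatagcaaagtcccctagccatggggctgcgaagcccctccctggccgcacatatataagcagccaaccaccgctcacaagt

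Of 71909 cells kept, 27133 fell in the 6 classes, between 7383 and 10750 per library. The libraries held 158570946 to 197176873 UMIs (unique molecular identifiers, each standing for 1 captured transcript), with a median of 4273 to 5562 per kept cell, and 137 to 180 cell barcodes were shared between pairs of libraries. Cells labelled as mouse T cells by the submitters included many other types, since the sort was on CD45. Foxp3 was at 328 to 395 CPM (the UMIs of a gene over all UMIs of the summed cells, on the usual CPM scale) in the Foxp3-positive class, Ncr1 at 516 to 762 CPM in NK cells and Mki67 at 701 to 908 CPM in cycling cells. NK cells held Cd3e at 0, because cells with a Cd3 UMI were left out. Summed over their 13 markers, monocyte and macrophage transcripts stood at 771 to 1033 CPM in CD8 cells and at 178 to 248 CPM in CD4 cells, a list that includes Ly6c2, which CD8 memory cells also express. The naive-like class came mostly from the mono-IL-10 library, with 1442, 141 and 116 cells in the mono-IL-10, IL-10/2-Trikine and combination libraries, so that class and that library cannot be told apart fully.

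Each of the 9 genes had its own order of levels over the 6 classes. Tcf7, Lef1, Bach2 and Id3 were highest in naive-like cells, and for each of the 4 the range over libraries lay above that of the next class. Tcf7 stood at 735, 693 and 702 CPM in naive-like cells of the mono-IL-10, IL-10/2-Trikine and combination libraries, against 97.9 to 126 CPM in CD8 cells, the next class. Bach2 stood at 491, 573 and 607 CPM in naive-like cells, then at 239 to 349 CPM in NK cells and 147 to 175 CPM in CD8 cells, and none of its 6 ranges overlapped the next. Lef1 was at 667 to 852 CPM in naive-like cells and 199 to 262 CPM in CD8 cells, and among its other 4 classes each range overlapped the next, while NK cells (140 to 156 CPM) lay above cycling cells (89.4 to 128 CPM).

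Both T-box genes were highest in NK cells. Eomes reached 354, 205 and 285 CPM in NK cells of the 3 libraries, above its range of 49.1 to 102 CPM in CD8 cells. Below NK cells, each Eomes range overlapped the next. Tbx21 reached 204, 180 and 213 CPM in NK cells and 102 to 133 CPM in CD4 cells, and was lowest, at 32.0 to 41.3 CPM, in naive-like cells. Tox was highest in Foxp3-positive cells (485 to 785 CPM) and CD4 cells (396 to 852 CPM) and lowest in NK cells (158 to 293 CPM), with every neighboring range overlapping. Id2 was highest in CD4 cells (1425 to 1948 CPM) and NK cells (1453 to 2190 CPM), which overlapped, and lowest in naive-like cells (176 to 467 CPM). Prdm1 was also highest in Foxp3-positive cells, at 127, 76.0 and 92.4 CPM.

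**Figure D1:**
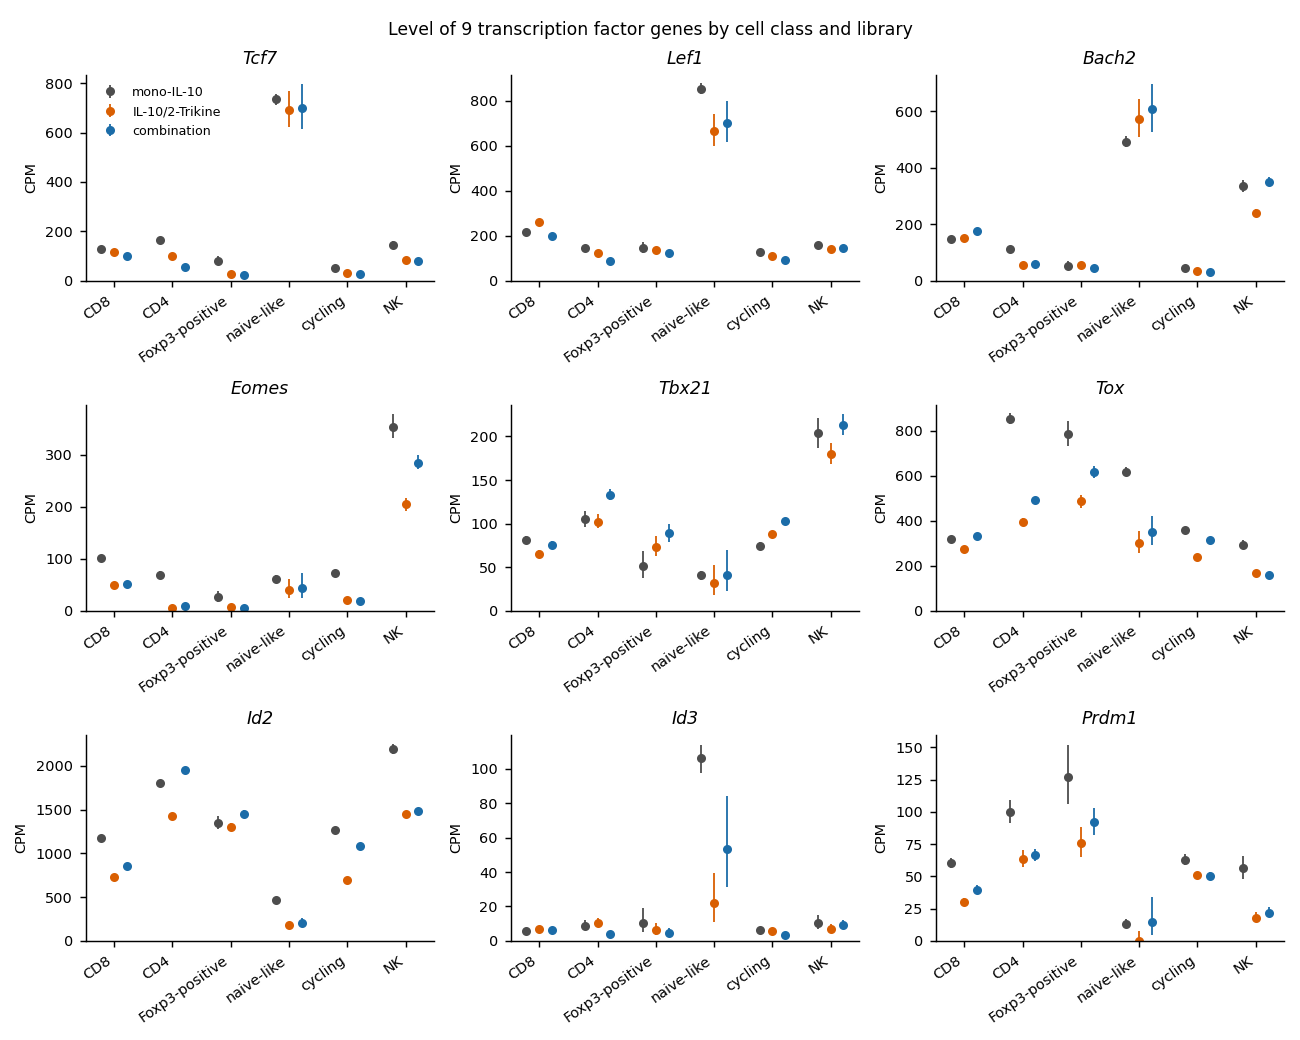
Level of each gene in CPM (y axis, linear, from 0, with its own scale per panel) in 6 cell classes (x axis) of the mono-IL-10, IL-10/2-Trikine and combination libraries. Points are 1 library each and lines are exact Poisson 95% intervals. Tcf7, Lef1, Bach2 and Id3 peak in naive-like cells and Eomes and Tbx21 in NK cells. Eomes drops from 68.6 CPM in CD4 cells of the mono-IL-10 library to 6.03 and 8.61 CPM in the other libraries.

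Genes with the most alike profiles were sought among 5098 genes over the 18 values given by 6 classes in 3 libraries, a description in which the values share cells' depth and library. Aff3 was closest to Tcf7 (Pearson r = 0.965), Dcaf17 to Lef1 (r = 0.957) and Ssbp2 to Bach2 (r = 0.974), which also lay near Foxp1 (r = 0.962). For Eomes the closest was 1700025G04Rik (r = 0.928), followed by Dusp2 (r = 0.897), and for Tbx21 it was Sytl3 (r = 0.977). Msi2 was closest to Tox (r = 0.933), Osbpl3 to Id2 (r = 0.949), Igfbp4 to Id3 (r = 0.929) and Tg to Prdm1 (r = 0.944). No member of the 9 was among the 3 closest of another.

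The first comparison asked how the factors differed when a STAT5 signal was added to IL-10, by setting the IL-10/2-Trikine library against the mono-IL-10 library. Eomes was far lower with the Trikine in CD4 and cycling cells and lower in CD8 cells, and Tox was lower in CD4 and naive-like cells. No gene in any class was higher by 2-fold or more. A value was counted when the ratio of CPM was at least 2 or at most 0.5 with at least 20 UMIs in the pair of libraries, and of the 54 values (9 genes in 6 classes) 12 were lower and 42 lay within 2-fold.

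In CD8 cells 2 of the 9 genes were lower (Eomes and Prdm1) and 0 higher, where 3.66% of the 12118 genes with enough UMIs were lower and 2.31% higher. In CD4 cells 2 were lower (Eomes and Tox) and 0 higher, beside 4.06% lower and 3.32% higher over all genes. In Foxp3-positive cells 2 were lower (Eomes and Tcf7) and 0 higher, beside 3.19% and 1.97%. Each of these counts rests on 2 of 9 genes. In Foxp3-positive cells the shares of cells with an Eomes or Tcf7 UMI did not stand clear of those of neutrophil-like cells, given below. The Prdm1 shares in CD8 and NK cells also overlapped those of neutrophil-like cells, though with mono-IL-10 they lay above that of naive-like cells. In naive-like cells 4 were lower (Tox, Id2, Id3 and Prdm1) and 0 higher, beside 15.9% and 2.53%, the class with the most lower genes overall. In cycling cells 1 was lower (Eomes) and 0 higher, beside 3.9% and 3.67%. In NK cells 1 was lower (Prdm1) and 0 higher, beside 3.04% and 4.35%. The ratio of the median gene was also below 1 in this comparison, by -0.14 (naive-like cells) to -0.07 (NK cells) on the log2 scale. With TMM or median-of-ratios scaling, Eomes and Prdm1 in CD8 cells and Tox in naive-like cells were back within 2-fold.

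The second comparison asked what differed when the antibody against PD-1 was added, by setting the combination library against the IL-10/2-Trikine library, which both comparisons share. Of the 54 values, 51 lay within 2-fold, though several of these had intervals that did not include 1. Another 1 was lower (Id3 in CD4 cells) and 1 higher (Id3 in naive-like cells). The last 1, Prdm1 in naive-like cells, was under the floor of 20 UMIs. Below 2-fold, Tox and Id2 were between 1.16 and 1.55 times as high in CD8, CD4, naive-like and cycling cells, with intervals that included 1 in naive-like cells, and Tcf7 was 0.56 times as high in CD4 cells. In CD8 cells 0 of 9 were lower and 0 higher, beside 1.67% and 3.32% of all genes. In CD4 cells 1 was lower and 0 higher, beside 1.88% and 2.14%. In Foxp3-positive cells 0 were lower and 0 higher, beside 1.11% and 2.12%. The naive-like class, with the fewest cells, had 0 lower and 1 higher, beside 3.54% and 2.71%. Both Id3 values past 2-fold rest on shares of cells not above those of neutrophil-like cells, given below. In cycling cells 0 were lower and 0 higher, beside 2.11% and 1.66%. In NK cells 0 were lower and 0 higher, beside 1.96% and 2.11%. Counts of 0 or 1 of 9 are no result about the 9 genes beside such shares.

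**Figure D2:**
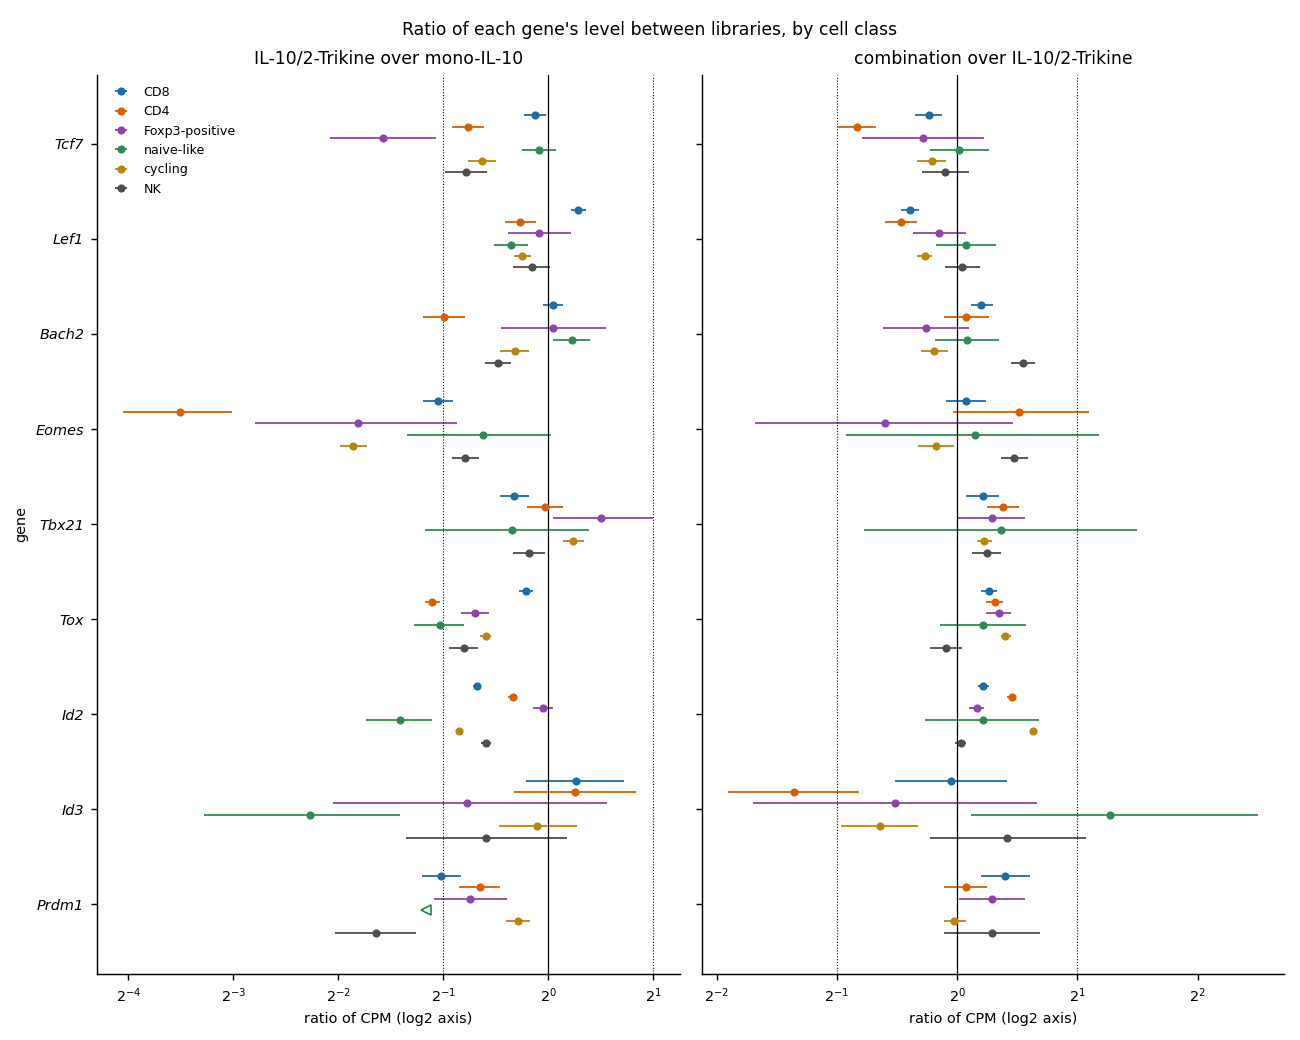
Ratio of CPM (x axis, log2 scale) for each of the 9 genes (y axis) in 6 cell classes, for IL-10/2-Trikine over mono-IL-10 (left) and combination over IL-10/2-Trikine (right). Points are ratios of summed counts, lines their exact 95% intervals for counting error, and dotted lines 2-fold. The open triangle is Prdm1 in naive-like cells, drawn at a floor of 3 counts. Its exact interval ends at 0.561. On the left, 12 values lie at or below 0.5 and none at or above 2. On the right, only Id3 passes 2-fold.

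Among the factors of naive and memory cells, Tcf7 and Bach2 had lower Trikine ratios in CD4 than in CD8 cells. In CD8 cells Tcf7 stood at 126, 115 and 97.9 CPM in the mono-IL-10, IL-10/2-Trikine and combination libraries, and neither ratio reached 2-fold (0.917, 95% interval 0.854 to 0.985, and 0.850, 0.786 to 0.918). The first was on the other side of 1 under 3 alternatives, at 0.01 to 0.13 on the log2 scale. In CD4 cells it stood at 166, 97.7 and 54.7 CPM, lowest in the combination library. Its ratios there were 0.590 (0.530 to 0.656) for the Trikine and 0.560 (0.502 to 0.626) for the added antibody, each within 2-fold. The first passed 2-fold when CD4 cells were drawn by UMI gates on each cell (-1.02 on the log2 scale). The share of CD4 cells with a Tcf7 UMI, after thinning each cell to 1000 UMIs, was 13.4%, 9.54% and 5.74% (29.7%, 21.4% and 12.8% unthinned), with intervals that did not overlap. Neutrophil-like cells, which should lack the gene, gave 2.40%, 1.56% and 0% of 69 to 448 cells, at median depths of 1323 to 2064 UMIs against 3554 to 4250 in CD4 cells.

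The CD4 class was not made of the same cells in the 3 libraries. A sub-cluster led by Csf1 and Ccl3, the first encoding a macrophage growth factor and the second a chemokine, held 33.4%, 31.7% and 55.0% of it. It had the lowest Tcf7 of the 3 sub-clusters given here, at 17.6, 10.5 and 6.54 CPM. A sub-cluster led by Tnfsf8, which encodes CD30 ligand, held 12%, 41.1% and 23.9% and had Tcf7 at 245, 138 and 111 CPM. A sub-cluster led by the uncharacterized Gm47957 held 10.9%, 5.13% and 4.75% and had the highest Tcf7 of the 3, at 490, 438 and 372 CPM. Other sub-clusters held the rest of the class. The Tnfsf8-led sub-cluster had Tcf7 ratios of 0.565 (0.458 to 0.700) for the Trikine and 0.802 (0.677 to 0.949) for the antibody. In the Csf1-led one, with 34, 22 and 54 UMIs, and in the Gm47957-led one, the intervals of both ratios included 1. Within CD8 cells the library shares also differed, a sub-cluster led by Ly6c2 and Ccl5 holding 35.5%, 50.2% and 33.9%. Tcf7 in that sub-cluster stood at 171, 174 and 158 CPM. A CD8 sub-cluster led by Calcb, which held 25.3%, 15.8% and 25.8% of the class, moved otherwise. Its Tcf7 stood at 18.1, 52.9 and 10.6 CPM, highest with the Trikine alone, with ratios of 2.93 (2.22 to 3.87) for the Trikine and 0.200 (0.137 to 0.285) for the antibody.

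In Foxp3-positive cells Tcf7 stood at 81.0 CPM with mono-IL-10, 27.2 CPM with the Trikine and 22.4 CPM in the combination. The ratio for the Trikine was 0.336 (0.237 to 0.476), from 77 and 62 UMIs. After thinning, 5.52% (2.41 to 10.6%), 2.07% and 1.70% of these cells held a Tcf7 UMI. Each interval overlapped that of neutrophil-like cells, which was 0.969 to 4.88%, 0.630 to 3.19% and 0 to 5.21%, so the shares cannot be told from background. By summed counts, the mono-IL-10 level (63.9 to 101 CPM) lay above the 42.4 CPM (30.7 to 57.1) of neutrophil-like cells. It did not lie clear of the 86.6 CPM of free RNA, taken from barcodes of 10 to 100 UMIs. That value gives the make-up of free RNA, not how much of it these cells held. The part of background in the ratio was not tested. In NK cells Tcf7 stood at 146, 84.8 and 79.1 CPM, a ratio of 0.580 (0.505 to 0.666) for the Trikine. The NK class joined cells of an Ncr1-rich cluster, 544, 761 and 1068 in number, with 145, 572 and 809 cells of a second cluster that also held T cells. In the Ncr1-rich cells alone the Tcf7 level was 139, 50.2 and 58.0 CPM and the Trikine ratio passed 2-fold, at 0.362 (0.294 to 0.444). In naive-like cells the Tcf7 ratios were 0.943 and 1.01.

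Lef1, the relative of Tcf7, was within 2-fold in every class of both comparisons, except that UMI gates on each cell gave a Trikine value of -1.10 on the log2 scale in naive-like cells. It stood at 215, 262 and 199 CPM in CD8 cells, a Trikine ratio of 1.22 (1.16 to 1.28), and at 145, 121 and 87.4 CPM in CD4 cells, a Trikine ratio of 0.832 (0.750 to 0.923). The intervals lay on opposite sides of 1. The CD4 value moved from -0.26 to 0.22 on the log2 scale when lineage was taken from the sub-cluster name. Bach2 was also within 2-fold in every class. It stood at 110, 55.1 and 58.1 CPM in CD4 cells, just outside the count with a ratio of 0.502 (0.437 to 0.576) that reached 2-fold under 3 alternatives, whereas CD8 cells gave 147, 151 and 175 CPM and a ratio of 1.03 (0.964 to 1.10). The CD8 sub-clusters did not move together. Bach2 stood at 47.0, 118 and 53.3 CPM in the Calcb-led sub-cluster, with ratios of 2.52 (2.11 to 3.00) and 0.451 (0.375 to 0.541). In a sub-cluster led by Ifitm1 it stood at 98.4, 67.6 and 127 CPM, with ratios of 0.687 (0.527 to 0.900) and 1.87 (1.53 to 2.30). In NK cells Bach2 was lowest with the Trikine alone, at 333, 239 and 349 CPM, a ratio of 1.46 (1.36 to 1.57) for the added antibody. Free RNA held Bach2 at unequal levels. It reached 344 CPM in barcodes of 10 to 100 UMIs in the mono-IL-10 library, against 119 and 76.1 CPM in the others, and neutrophil-like cells of that library held 856 CPM against 68.4 and 144 CPM. B cells, which express Bach2, were 7.06%, 0.771% and 0.905% of kept cells. Their part in the Bach2 ratios was not tested.

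Eomes showed the largest differences of the 9. In CD4 cells it fell from 68.6 CPM with mono-IL-10 to 6.03 CPM with the Trikine, and stood at 8.61 CPM in the combination, from 348, 36 and 115 UMIs. The mono-IL-10 library stood far above the other pair. The Trikine ratio was 0.0879 (0.0605 to 0.124) and that of the antibody 1.43 (0.974 to 2.14). On the log2 scale the Trikine value of Eomes moved from -3.51 to -2.67 with lineage taken from the sub-cluster name and to -1.99 with UMI gates on each cell. Jun, which tissue handling can induce, moved with it, at 146, 41.9 and 32.8 CPM in CD4 cells, 131, 36.4 and 41.4 CPM in CD8 cells and 75.7, 28.0 and 31.0 CPM in cycling cells. Its part in the Eomes, Tox and Prdm1 ratios was not tested. After thinning, 5.65% of CD4 cells held an Eomes UMI with mono-IL-10 (4.33 to 7.22%), 0.477% with the Trikine (0.175 to 1.04%) and 0.895% in the combination (0.562 to 1.35%). Neutrophil-like cells gave 1.03%, 1.12% and 1.45%, so the last 2 CD4 shares were at background and the antibody ratio is read as such.

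In all 3 of the CD4 sub-clusters above, Eomes was lower with the Trikine than with mono-IL-10. It stood at 34.7, 4.79 and 4.48 CPM in the Csf1-led sub-cluster and at 30.2, 5.11 and 9.56 CPM in the Tnfsf8-led one. The Gm47957-led sub-cluster gave 96.8, 7.82 and 6.69 CPM, from 75, 3 and 5 UMIs. These 3 held 67, 16 and 75 of the 348 Eomes UMIs in CD4 cells of the mono-IL-10 library, and the part of the mix in the rest was not tested. In CD8 cells Eomes fell from 102 to 49.1 CPM with the Trikine and stood at 51.6 CPM in the combination. The ratio of 0.483 (0.438 to 0.533) was near the limit. It passed back over 0.5 under TMM and median-of-ratios scaling. It also did so without the Ifitm1-led sub-cluster, left out because Gzma, of the NK marker list, was among its leading genes. Of all cells of that sub-cluster 68.2% held a Cd8a UMI, and in its CD8 cells Eomes stood at 30.3, 14.3 and 17.5 CPM. In the Calcb-led CD8 sub-cluster Eomes stood at 83.3, 73.0 and 48.8 CPM, with ratios of 0.876 (0.730 to 1.05) and 0.669 (0.542 to 0.826). The other CD8 sub-clusters measured had Trikine ratios of 0.434 to 0.569.

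Cycling cells gave 73.0, 20.2 and 17.9 CPM of Eomes, a Trikine ratio of 0.276 (0.253 to 0.302). The 2 lineages within the cycling class differed in size. In cycling CD8 cells (512, 1529 and 719 cells) Eomes stood at 75.8, 35.9 and 42.6 CPM, a ratio of 0.474 (0.424 to 0.530). Cycling CD4 cells (156, 797 and 847 cells) gave 74.1, 4.04 and 4.81 CPM, a ratio of 0.0545 (0.0393 to 0.0746). With mono-IL-10 the 2 lineages thus had nearly equal levels, and with the Trikine the CD4 level was the lower. In Foxp3-positive cells Eomes gave 26.3, 7.46 and 4.91 CPM from 25, 17 and 16 UMIs. Its thinned shares of 1.38%, 0.230% and 0.425% are at the neutrophil-like background. By summed counts, its mono-IL-10 level (17 to 38.8 CPM) lay above the 6.9 CPM (2.77 to 14.2) of neutrophil-like cells. It did not lie above the 30.6 CPM of free RNA, but that value does not give how much free RNA these cells held. In the combination their 4.91 CPM stood beside 42.4 CPM of free RNA. The part of background in the ratio was not tested. On the log2 scale the Trikine value of Eomes in Foxp3-positive cells was -1.82 and ranged from -1.72 to -3.37 over the alternatives. In NK cells Eomes stood at 354, 205 and 285 CPM, a Trikine ratio of 0.579 (0.529 to 0.632) and an antibody ratio of 1.39 (1.29 to 1.5). The Ncr1-rich cells alone gave 421, 295 and 397 CPM and a Trikine ratio of 0.701 (0.637 to 0.772), and the cells of the second NK cluster gave 115, 95.9 and 118 CPM and 0.831 (0.631 to 1.11). Both ratios were nearer 1 than that of the joined class, in which the second cluster rose from 145 to 572 cells.

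**Figure D3:**
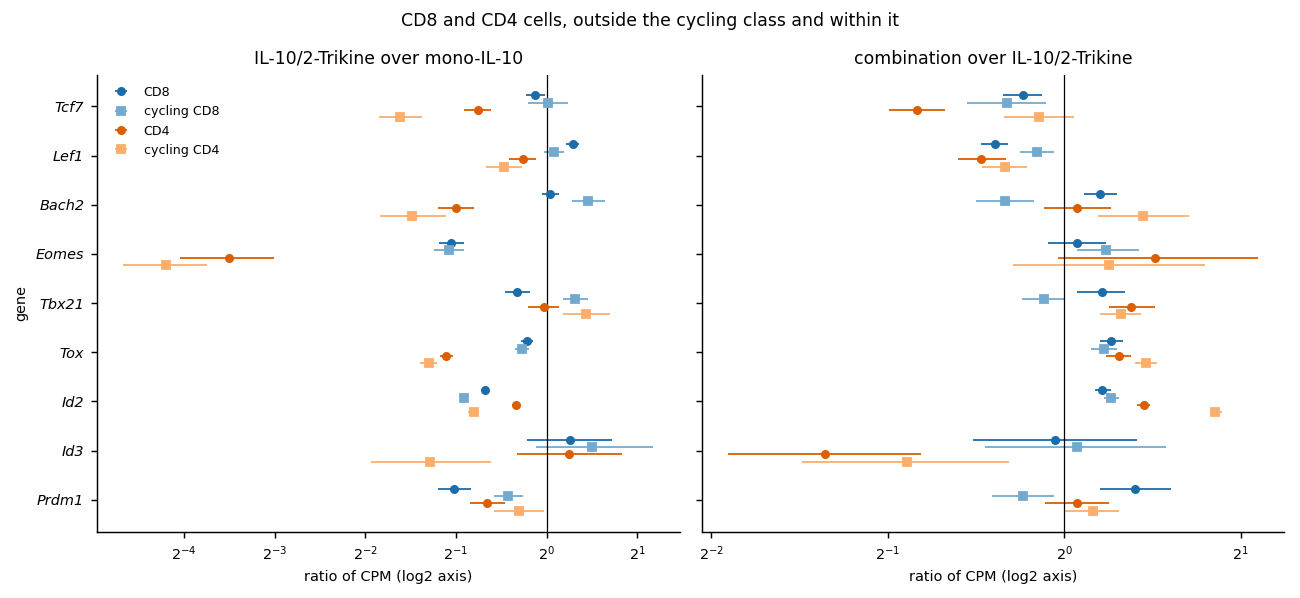
Ratio of CPM (x axis, log2 scale) of the 9 genes (y axis) in CD8 and CD4 cells outside the cycling class (circles) and within it (squares), for the 2 comparisons. Lines are exact 95% intervals for counting error. With the Trikine, Eomes lies at 0.483 and 0.474 in the 2 CD8 groups and at 0.0879 and 0.0545 in the 2 CD4 groups. Tcf7, Bach2 and Tox are also lower in CD4 groups than in CD8 groups.

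Tbx21, the other T-box gene, stayed within 2-fold in all 6 classes of both comparisons. It stood at 105, 102 and 133 CPM in CD4 cells, where its Trikine ratio was 0.978 (0.869 to 1.10). In CD8 cells it gave 81.3, 65.1 and 75.2 CPM, and in cycling cells 74, 87.7 and 103 CPM. The antibody ratio was above 1 in each class, from 1.16 in CD8 cells (1.05 to 1.27) to 1.30 in CD4 cells (1.19 to 1.43), and the interval included 1 in naive-like cells. On the log2 scale the antibody value of Tbx21 turned from 0.28 to -0.17 in Foxp3-positive cells with UMI gates on each cell and to -0.10 there without cells holding an Mki67 UMI, and from 0.37 to -0.30 in naive-like cells with finer clusters. In cycling CD8 cells its antibody ratio was 0.922 (0.848 to 1), and in cycling CD4 cells 1.25 (1.15 to 1.35). Its values in CD4 cells thus did not follow those of Eomes.

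Tox fell in CD4 cells, from 852 CPM with mono-IL-10 to 396 CPM with the Trikine, and stood at 491 CPM in the combination. The Trikine ratio was 0.465 (0.442 to 0.489), and on the log2 scale it moved from -1.10 to -0.97, back within 2-fold, when cells with an Mki67 UMI outside the cycling class were left out. Thinned shares of CD4 cells with a Tox UMI were 45.8%, 30.4% and 36.5%, all above the 3.12 to 9.25% of neutrophil-like cells. In each of the 3 CD4 sub-clusters above, Tox was lower with the Trikine but within 2-fold. It stood at 810, 410 and 497 CPM in the Csf1-led sub-cluster, a Trikine ratio of 0.506 (0.465 to 0.550), and at 435, 342 and 372 CPM in the Tnfsf8-led one, a ratio of 0.785 (0.676 to 0.914). The Gm47957-led sub-cluster had the highest level of the 3, at 1453, 850 and 914 CPM, a ratio of 0.585 (0.515 to 0.662). The part of the changed shares of these sub-clusters in the ratio of the class was not tested. Cycling CD4 cells gave 621, 252 and 348 CPM, a Trikine ratio of 0.406 (0.381 to 0.433), whereas cycling CD8 cells gave 253, 210 and 245 CPM, a ratio of 0.830 (0.786 to 0.877). In CD8 cells outside the cycling class Tox was nearly level, at 319, 275 and 330 CPM. In naive-like cells it stood at 618, 302 and 351 CPM, highest with mono-IL-10. The Trikine ratio there, 0.488 (0.412 to 0.575), was near the limit and back within 2-fold under 4 alternatives. The antibody ratio of Tox was 1.20 (1.15 to 1.26) in CD8 cells, 1.24 (1.18 to 1.30) in CD4 cells and 1.32 (1.29 to 1.36) in cycling cells.

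Among CD8 cells thinned to 1000 UMIs, those with UMIs of both Tox and Pdcd1, the gene of PD-1, were 2.70%, 4.78% and 6.93% in the 3 libraries. A Pdcd1 UMI was found in 12.5% (10.1 to 15.2%), 22% (18.7 to 25.6%) and 31.2% (27.9 to 34.6%) of cells with a Tox UMI, and in 8.05%, 14.5% and 19.2% of the others. Pdcd1 was thus more frequent beside Tox in each library, and its level alone stood at 124, 204 and 291 CPM. Cells with both Tcf7 and Pdcd1, the transcripts of progenitor exhausted cells, were 0.933%, 1.93% and 1.72% of CD8 cells. In CD8 cells with a Tcf7 UMI a Pdcd1 UMI was found in 7.59%, 16.1% and 17.1%, and in the others in 9.21%, 16.1% and 22.4%.

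Id2 was within 2-fold in 5 of 6 classes with the Trikine and in all 6 with the antibody. It stood at 1177, 734 and 853 CPM in CD8 cells, a Trikine ratio of 0.623 (0.607 to 0.640). In cycling cells it gave 1263, 700 and 1083 CPM, lowest with the Trikine alone, with a Trikine ratio of 0.554 (0.544 to 0.565) and an antibody ratio of 1.55 (1.52 to 1.57). The antibody ratio was 1.81 (1.77 to 1.86) in cycling CD4 cells and 1.20 (1.17 to 1.24) in cycling CD8 cells. In naive-like cells Id2 fell from 467 to 176 CPM with the Trikine, a ratio of 0.376 (0.301 to 0.465), which on the log2 scale moved from -1.41 to -0.01 when naive-like cells were drawn by UMI gates on each cell. Thinned shares of naive-like cells with an Id2 UMI were 28.8%, 12.2% and 17.6%, not above the 41.4%, 40% and 29% of neutrophil-like cells. Free RNA held Id2 at 776, 712 and 863 CPM, and the part of background in the ratio was not tested. The naive-like class is small in the Trikine library, and Hspa1a, a heat shock gene, moved with Id2 there, at 345, 45.9 and 127 CPM. Jun was also highest in the mono-IL-10 library, at 382, 68.1 and 74.5 CPM in NK cells and at 453, 89.9 and 133 CPM in naive-like cells. Their part in the ratios was not tested.

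Id3 was sparse outside naive-like cells. There it fell from 106 CPM with mono-IL-10 to 22 CPM with the Trikine, from 605 and 11 UMIs, and it stood at 53.1 CPM in the combination, from 18 UMIs. The ratios were 0.208 (0.103 to 0.375) and 2.41 (1.08 to 5.66), the second resting on 11 and 18 UMIs and at -0.04 on the log2 scale, in place of 1.27, with UMI gates on each cell. Thinned shares of 7.29%, 2.16% (0.447 to 6.18%) and 2.94% (0.611 to 8.36%) had overlapping intervals in the last 2 libraries. Those 2 shares were not above the neutrophil-like ones given next, so the higher value in the combination cannot be told from background. In CD4 cells Id3 stood at 8.88, 10.6 and 4.12 CPM, an antibody ratio of 0.390 (0.267 to 0.569). Thinned shares there were 0.861%, 1.19% and 0.488%, beside 2.46% (1.23 to 4.35%) of neutrophil-like cells with the Trikine and 0% of 69 cells (0 to 5.21%) in the combination. The CD4 shares were not above these, so the ratio cannot be told from background. Id3 was also among the leading genes of a T cell sub-cluster led by Hspa1a. Without that sub-cluster its Trikine value on the log2 scale moved from 0.26 to -0.11 in CD8 cells and from 0.25 to -0.10 in CD4 cells. In Foxp3-positive cells it moved from -0.77 to -1.29. The part of heat shock genes and Jun in the naive-like Id3 value was not tested.

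Prdm1 passed 2-fold with the Trikine in CD8, NK and naive-like cells. Neutrophil-like cells gave thinned shares of 4.45% (2.39 to 7.49%), 3.79% (2.23 to 6.01%) and 2.90% (0.353 to 10.1%), and free RNA held 59.0, 44.6 and 42.6 CPM. Naive-like cells of the mono-IL-10 library, at 0.853% (0.426 to 1.52%), lay below its neutrophil-like cells, and KP1 tumor cells gave 11.3, 5.8 and 7.49 CPM. The intervals of the CD8 and NK shares overlapped those of neutrophil-like cells in each library. With mono-IL-10 the CD8 (4.22 to 5.78%) and NK (4.05 to 7.77%) intervals lay above that of naive-like cells. With the Trikine and in the combination they overlapped the naive-like intervals (0 to 2.62% and 0.238 to 6.9%). The part of background in the Prdm1 ratios was not tested. In CD8 cells it stood at 60.6, 30 and 39.5 CPM, a Trikine ratio of 0.494 (0.435 to 0.561) that was back within 2-fold under 4 of the alternatives tried, with thinned shares of 4.95%, 2.45% and 3.70%. Of the CD8 sub-clusters measured, the one led by Calcb and Adgrg1 held the highest Prdm1, at 87.4, 34.2 and 47.8 CPM. It made up 25.3%, 15.8% and 25.8% of CD8 cells. In NK cells Prdm1 stood at 56.3, 18.1 and 22 CPM, a Trikine ratio of 0.321 (0.245 to 0.419). The Ncr1-rich cells alone gave 57.8, 20.4 and 24.0 CPM and a ratio of 0.354 (0.254 to 0.488). Thinned shares of NK cells with a Prdm1 UMI were 5.70% (4.05 to 7.77%), 2.27% and 1.91%. In naive-like cells 77 UMIs with mono-IL-10 (13.4 CPM) faced 0 with the Trikine. A floor of 3 counts, or 5.99 CPM, would be 2.24-fold lower, and the exact interval of the ratio ends at 0.561. The mono-IL-10 level there was close to that of KP1 tumor cells, so it is not read as a change in expression.

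In the classes where Prdm1 was highest it stayed within 2-fold. Foxp3-positive cells gave 127, 76.0 and 92.4 CPM, a Trikine ratio of 0.597 (0.471 to 0.760), and CD4 cells 99.8, 63.5 and 66.6 CPM, a ratio of 0.636 (0.556 to 0.728). A Prdm1 UMI was rarer in CD4 cells with a Tcf7 UMI than in the others of the combination library, at 0.709% (0.0180 to 3.89%) against 7.08% (6.07 to 8.20%). With mono-IL-10 the shares were 2.86% (0.784 to 7.15%) and 9.17% (7.37 to 11.2%), and with the Trikine 4.17% (1.37 to 9.46%) and 5.71% (4.44 to 7.22%), with intervals that overlapped for the Trikine.

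Because the classes took different shares of T cells in the 3 libraries, the 9 genes were also summed over all T cells. Cycling cells supplied 28.0%, 61.3% and 42.7% of T cell UMIs and naive-like cells 12.4%, 0.602% and 0.440%. Tcf7 in pooled T cells stood at 184, 57.6 and 52.1 CPM, a Trikine ratio of 0.314 (0.303 to 0.325). Holding the class mix of the mono-IL-10 library and changing only the levels gave 0.838, and holding the levels and changing only the mix gave 0.461. The levels held here are those of whole classes, whose sub-clusters also differed in share. Lef1 (0.559 pooled, 0.929 with the mix held, 0.603 with the levels held) and Bach2 (0.413, 0.969 and 0.520) were likewise nearer 1 with the mix held. Eomes was nearer 1 with the levels held, at 0.287 pooled, 0.380 with the mix held and 0.947 with the levels held. Tox (0.581, 0.619 and 0.922) and Id2 (0.664, 0.636 and 1.08) were alike in this, as was Prdm1 (0.799, 0.644 and 1.08). Id3 was lower both ways (0.369, 0.487 and 0.386), and Tbx21 was near 1 both ways (1.09, 0.955 and 1.02). For the added antibody the pooled ratios ranged from 0.673 for Id3 to 1.53 for Id2, and with the mix held from 0.652 to 1.42.

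**Figure D4:**
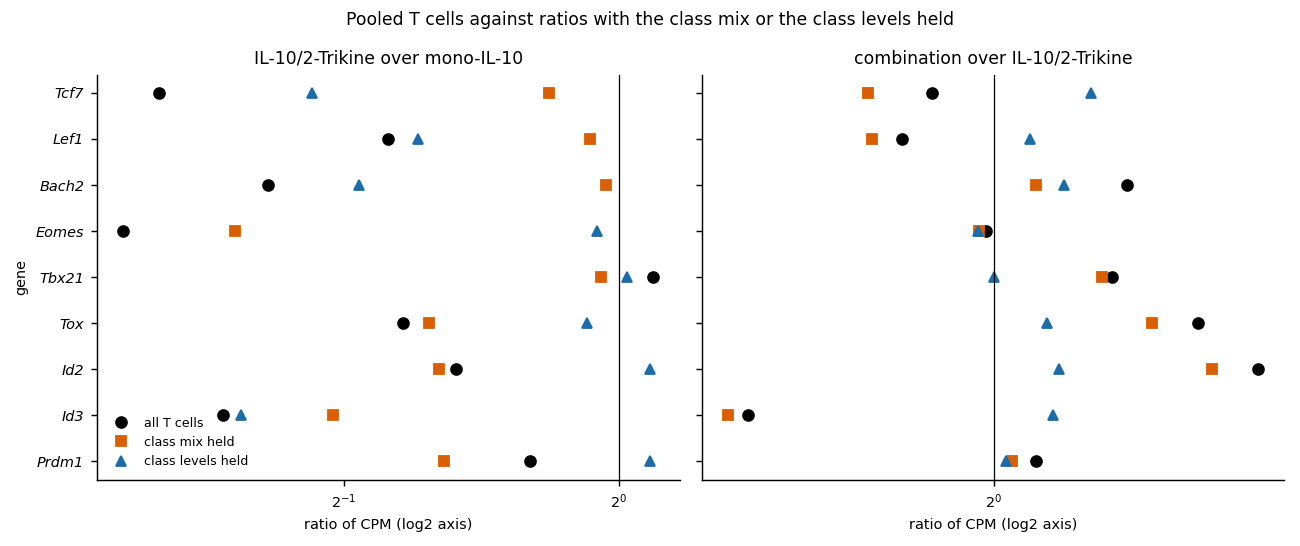
Ratio of CPM (x axis, log2 scale) of the 9 genes (y axis) in all T cells summed (circles), with the class mix of the reference library held (squares) and with its class levels held (triangles), for the 2 comparisons. With the Trikine, Tcf7 lies at 0.314 pooled, 0.838 with the mix held and 0.461 with the levels held, whereas Eomes lies at 0.287, 0.380 and 0.947.

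Other genes of the same programs were read from 4 lists, described by counts and medians on the log2 scale of the ratio, beside the median of all genes of the class. A list of E proteins, which Id2 and Id3 bind, with Id1, another inhibitor of E proteins, the TCF co-activator Ctnnb1 and TLE co-repressors had a median of -0.25 in CD8 cells with the Trikine, with 1 of 8 lower and 0 higher, beside a median of -0.08 and 3.66% lower and 2.31% higher for all genes. The 1 was Tcf4, an E protein, at 11.9 and 5.78 CPM. In CD4 cells 1 of 7 was lower (Tcf4, at 17.4 and 7.54 CPM) and 1 higher (Id1, at 1.18 and 3.69 CPM), with a median of -0.33, beside -0.10, 4.06% and 3.32%. With the antibody, 1 of 8 was higher in CD8 cells (Id1, at 0.889 and 2.84 CPM), with a median of 0.24, beside 0.02 and 3.32% higher. In CD4 cells 0 of 8 passed 2-fold, beside 2.14% higher and 1.88% lower.

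Memory and quiescence genes did not move one way. With the Trikine, 1 of 14 was higher and 1 lower in CD8 cells (median 0.17, beside -0.08 and 2.31% higher and 3.66% lower for all genes) and likewise in CD4 cells (median -0.23, beside -0.10, 3.32% and 4.06%). Counts of 1 of 14 are near those shares. Ccr7, a homing receptor of naive and central memory cells, stood at 21.9, 53.4 and 22.7 CPM in CD8 cells of the 3 libraries, higher with the Trikine alone. Il7r, the IL-7 receptor, rose in CD4 cells from 364 to 880 CPM and stood at 634 CPM in the combination. Cxcr5 fell in CD4 cells from 15.4 to 4.52 CPM. In naive-like cells 2 of 14 were higher (Ccr7 and Myb) and 1 lower (Cxcr5), with a median of 0.23, beside -0.14, 2.53% and 15.9%. With the antibody, 1 of 14 was lower in CD8 cells (Ccr7, median -0.19, beside 0.02 and 1.67% lower) and 0 passed 2-fold in CD4 cells (median -0.40, beside 0.01, 2.14% higher and 1.88% lower).

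Exhaustion genes had a median of -0.35 in CD8 cells with the Trikine, where 2 of 16 were lower and 0 higher, beside 3.66% and 2.31% of all genes. In CD4 cells the median was -0.45 and 1 of 16 was lower, beside 4.06%. Pdcd1, on the same list, went the other way with the Trikine, within 2-fold. It rose from 124 to 204 CPM in CD8 cells, from 273 to 315 CPM in CD4 cells and from 141 to 174 CPM in cycling cells. Tox2, a relative of Tox, fell in CD8 cells from 12 to 1.51 CPM with the Trikine and rose to 10.0 CPM in the combination, from 181, 17 and 134 UMIs. In CD4 cells it fell from 36.1 to 8.21 CPM. Tox2 thus moved more than Tox itself in both lineages. With finer clusters, a CD8-named sub-cluster with Tox2 among its leading genes held 547, 68 and 311 cells of the 3 libraries. Its part in the Tox2 values was not tested. With the antibody, the list's median was 0.41 in CD8 cells and 0.42 in CD4 cells, with 1 of 16 (Tox2) and 0 of 16 past 2-fold, beside 3.32% and 2.14% higher. Cycling cells gave a median of -0.30 with 2 of 16 lower for the Trikine (Tox2 and Lag3, an inhibitory receptor), beside 3.9% lower. For the antibody they gave 0.39 with 1 of 16 higher, beside 1.66%. The list did not fall in every class with the Trikine. In Foxp3-positive cells its median was 0.31, beside -0.08, with 1 of 16 lower, beside 3.19%. Naive-like cells gave 0.06, beside -0.14, with 2 higher and 2 lower, beside 2.53% and 15.9%. NK cells gave -0.07, as for all genes, with 1 of 14 higher, beside 4.35%.

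Effector genes, which T-bet and Eomes control in textbook accounts, were split. With the Trikine, Gzma, the gene of granzyme A, rose in CD8 cells from 4481 to 11748 CPM and in CD4 cells from 1665 to 4435 CPM, whereas Ifng, the gene of interferon gamma, fell in CD8 cells from 225 to 75.4 CPM and in NK cells from 247 to 71.9 CPM. In CD8 cells 1 of 12 was higher and 2 lower (median -0.36, beside -0.08, 2.31% and 3.66% for all genes). In CD4 cells 2 of 11 were higher (Gzma and Gzmb, median -0.00, beside -0.10 and 3.32%). In NK cells 2 of 12 were lower (Ifng and Zeb2, median -0.03, beside -0.07 and 3.04%). In cycling cells 3 of 12 were lower (Zeb2, Klrg1 and S1pr5, median -0.60, beside -0.08 and 3.9%), in naive-like cells 3 of 11 were lower (Gzmb, Ifng and Cxcr6, median -0.36, beside -0.14 and 15.9%), and in Foxp3-positive cells 2 of 11 were higher (Gzma and Cx3cr1, median 0.50, beside -0.08 and 1.97%). The CD8 sub-cluster led by Ifitm1 and Itga1, with Gzma among its leading genes, held 5.57%, 16% and 12.4% of CD8 cells. Its part in the Gzma value was not tested. Gzma, also a marker of NK cells here, was not set against a background level in any class. The NK-named clusters held 1313, 4909 and 4172 cells, and the part of their transcripts in the T cell values was not tested. Zeb2, a target of T-bet, fell in NK cells from 256 to 121 CPM and in cycling cells from 124 to 56.6 CPM. With the antibody, 1 of 11 was higher in CD4 cells (Prf1, the gene of perforin, at 308 and 622 CPM) and 1 lower (Klrg1, at 23.5 and 7.19 CPM), with a median of 0.46, beside 0.01, 2.14% and 1.88%. In NK cells 0 of 12 passed 2-fold with the antibody, with a median of 0.11, beside 0.01, 2.11% higher and 1.96% lower.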

How the data were processed

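Each group was 1 library of droplet-based 3′ single-cell RNA sequencing. The deposited files held unfiltered matrices of UMI counts per gene and barcode, made by the authors with Cell Ranger (8.0.0 per the file headers, another version in the methods). The labels name build mm10 and the methods GRCm39, and intronic reads were counted by the methods' setting. A barcode counted as a cell with 200 or more detected genes and a mitochondrial share no higher than 20%, which left more cells than the methods state. Cells were clustered with scanpy 1.11.5 (2000 variable genes, 30 components, 20 neighbors, Leiden resolution 1, seed 1), and T cells again with 1500 genes. Clusters were named from marker lists, and lineage was set by UMIs of Cd4, of Cd8a or Cd8b1, and of Foxp3 in each cell. The rule for naming naive-like and cycling sub-clusters was chosen after the clusters were seen, and 1 cycling sub-cluster led by Klra7 and Ncr1 stayed unnamed. Doublets were not removed in the reported values.

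Counts were summed per class and library and divided by total UMIs (CPM). Ratios carry exact conditional binomial 95% intervals, levels exact Poisson intervals and shares Clopper-Pearson intervals, for counting error only. With 1 library per group no test was run. The steps were tested on simulated data. The 9 genes, the marker lists and the 4 gene lists were chosen with earlier results of these data known. Named genes were the 9, the members of those lists with the largest changes (Pdcd1, Il7r in the combination and Gzma in CD4 cells being shown beside them after their values were seen), and the 3 most alike genes by log2(CPM + 1) among genes with at least 50 CPM somewhere. TMM factors (edgeR 4.0.16) and median-of-ratios factors, other filters and other class definitions were alternatives.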

Additional observations from a re-analysis of the deposited data

Results flagged for a closer look

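Lef1 had opposite directions in the 2 lineages with the Trikine, with a ratio to mono-IL-10 of 0.832 in CD4 cells and 1.22 in CD8 cells, each with an interval that did not include 1. The CD4 value of Lef1 rests on how the class was drawn: on the log2 scale it moved from -0.26 to 0.22 with lineage set by sub-cluster and to 0.00 without the CD8-named sub-cluster that has Bach2 among its leading genes. Bach2 was opposite in cycling cells, with a Trikine ratio of 0.358 in cycling CD4 cells and 1.37 in cycling CD8 cells. For the added antibody Bach2 was again opposite, at 1.36 in cycling CD4 cells and 0.793 in cycling CD8 cells, and both Bach2 pairs share the IL-10/2-Trikine library. Bach2 moved the same way as in cycling CD4 cells in KP1 tumor cells (Trikine ratio 0.407, antibody ratio 2.1), in B cells (0.299 and 2.26) and in neutrophil-like cells (0.0799 and 2.1). The cycling CD4 level, 43.7, 15.6 and 21.3 CPM, was near or below the 46.2, 18.8 and 39.5 CPM of KP1 tumor cells and below the 344, 119 and 76.1 CPM of free RNA, so it cannot be told from background. The cycling CD8 level, 41.2, 56.5 and 44.8 CPM, was also below that of free RNA in each library and, with mono-IL-10, below that of KP1 tumor cells. With 1 library per group these differences between lineages were not tested.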

How the results depend on the processing

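For the Trikine, the 12 of 54 values past 2-fold became 9 to 13 over 15 alternatives, none of them higher. For the antibody, the 2 values past 2-fold became 1 with UMI gates on each cell and 1 at resolution 2. The 1 higher value became 0 under each of these and 2 with no floor on UMIs, and the 1 lower value became 2 without cells holding a macrophage or B cell UMI. Id3 in naive-like cells reversed with UMI gates, to -0.04 from 1.27 on the log2 scale. Eomes in CD4 cells moved from -3.51 to -2.67 with lineage from the sub-cluster name and to -1.99 with UMI gates. Eomes in CD8 cells was back within 2-fold at -0.95 (TMM), -0.96 (median-of-ratios) and -0.87 (without the Ifitm1-led sub-cluster, which had Gzma of the NK list among its leading genes). Shares of cells with a UMI moved beyond their interval in 159 of 162 cases without thinning, 137 at 2000 UMIs, 127 at 500 UMIs and 0 with at least 500 detected genes. The cause of these moves was not tested, apart from thinning, which changes the UMIs per cell by construction. The doublet caller's own threshold marked 12.5% of cells in the mono-IL-10 library and 0 in the others, so leaving out its calls was not run, and the 10% of cells with the highest scores per library were left out instead. That choice, and the alternatives on the NK class, Mki67 cells, heat shock genes, other cell types and named sub-clusters, were made after seeing the data. No paired analysis was possible because each group was 1 library. Id3, Eomes in Foxp3-positive cells and all values in the small naive-like class of the Trikine and combination libraries are limited by depth.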
